A study of Mus musculus with 4 samples.

Results

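The small leucine-rich proteoglycans (SLRPs) are secreted matrix proteins whose core is a curved run of leucine-rich repeats. The genes described here were the 8 entries of the gene tables named *Dcn*, *Bgn*, *Lum*, *Fmod*, *Ogn*, *Prelp*, *Aspn* and *Omd*, out of 46983 genes. They were measured by bulk RNA-seq of larynx tissue at E10.5 (32 to 35 somites) in 2 pools from *Shh-/-* embryos and 2 pools from wild-type (WT) embryos, each pool made from 3 larynxes. The mutant carries the null allele *Shhtm1amc* and the line was kept on the Swiss Webster background of the WT mice, and no other allele or treatment is named for either group. The study's design text calls the mutants *Shh-/-*, while the sample labels write *Shhtm1amc Shh+/-*. The first name is used here. Pools are numbered as in the labels, so that *Shh-/-* has pools 1 and 2 and WT has pools 4 and 6.

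SLRP core proteins bind the surface of collagen fibrils and are known for limiting fibril diameter and spacing in connective tissue. The class I proteins decorin and biglycan carry chondroitin or dermatan sulfate chains and also bind TGFβ, the growth factor family that drives much matrix production in mesenchyme. The class II proteins lumican, fibromodulin and osteomodulin can carry keratan sulfate, and the class III protein osteoglycin (mimecan) is found in bone and cornea.

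At E10.5 the 8 genes spanned a wide range of levels, and they did not move together between the genotypes. *Bgn* (biglycan) rose 2.29-fold in *Shh-/-* larynxes and was the only member to pass the test. *Dcn* (decorin) and *Lum* (lumican) had levels 2.14-fold and 2.01-fold lower in *Shh-/-*, with both mutant pools under both WT pools, and did not pass it. *Fmod* was low in both genotypes, and *Ogn*, *Omd*, *Aspn* and *Prelp* were near or under 1 TPM (a gene's share of all transcripts of a library, corrected for gene length).

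RefSeq promoter sequences (GRCm38.p6) were matched for 6 of the 8 members; *Dcn* and *Lum* had no entry. The 250 bases before the start are printed for *Bgn*, the member that rose, for *Fmod*, the best-expressed of the other matched members, and for *Aspn*, a gene of the same class as *Bgn* at a far lower level. Capitals mark the motifs searched for on both strands, which were the GC box (GGGCGG or CCGCCC) and the TATA letters (TATAAA or TTTATA). The windows are chrX:73483351-73483600 on the + strand, chr1:134037004-134037253 on the + strand and chr13:49544193-49544442 on the + strand.
Bgn: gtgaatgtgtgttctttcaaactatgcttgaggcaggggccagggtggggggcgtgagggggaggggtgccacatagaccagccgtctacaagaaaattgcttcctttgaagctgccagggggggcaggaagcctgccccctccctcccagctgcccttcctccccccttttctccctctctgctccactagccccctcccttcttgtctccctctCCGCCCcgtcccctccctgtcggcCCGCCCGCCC
Fmod: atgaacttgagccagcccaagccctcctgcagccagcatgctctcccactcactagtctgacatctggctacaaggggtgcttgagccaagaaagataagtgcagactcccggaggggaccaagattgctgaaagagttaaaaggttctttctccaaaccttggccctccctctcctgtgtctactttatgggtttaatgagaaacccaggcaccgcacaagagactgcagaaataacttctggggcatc
Aspn: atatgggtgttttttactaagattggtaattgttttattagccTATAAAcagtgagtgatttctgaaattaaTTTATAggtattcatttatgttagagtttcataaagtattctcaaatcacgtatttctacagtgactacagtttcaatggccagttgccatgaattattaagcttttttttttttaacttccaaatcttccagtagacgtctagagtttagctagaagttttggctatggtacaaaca
The *Bgn* window was 64.4% G or C with 7 CpG dinucleotides, against a median of 52.4% and 6 CpG over all 32851 promoter windows of the same length. It held 3 GC boxes, whose first bases lie 34, 10 and 6 bases before the start. The last of these matches overlap each other. A GC box occurred in 32.7% of all windows and in 1 of the 6 members. *Fmod* had 51.2% G or C with 2 CpG and no match. In *Aspn*, at 30% G or C, the TATA letters occurred 2 times, 207 and 178 bases before the start. They also occurred 2 times, overlapping, in *Ogn*, and in 12.4% of all windows. The core letters of the site bound by GLI factors, the transcription factors of HH signaling (ACCACCC or GGGTGGT), occurred in 3.92% of all windows and in 0 of the 6 members.

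*Dcn* (ENSMUSG00000019929.15; mm10, chr10:97479500-97518162, + strand) was the most abundant member in WT. Its level was 96.5 TPM in WT pool 4 and 138 TPM in WT pool 6, and 43.6 and 65.6 TPM in *Shh-/-* pools 1 and 2. The groups did not overlap, but the pools of each group lay well apart. The *Shh-/-* mean was 54.6 ± 15.5 TPM, against 117 ± 29.3 TPM for WT (SD, n = 2 pools each). The log2 fold change of TPM + 1 (*Shh-/-* minus WT, limma) was -1.09 (SE 0.26, 95% interval -1.77 to -0.42), with an adjusted p of 0.116. *Dcn* therefore did not pass the threshold of 0.05. Between the pools of a genotype *Dcn* differed by 0.58 on the log2 scale in *Shh-/-* and by 0.51 in WT, and 92.6% and 92.5% of the 10429 genes with a mean of at least 10 TPM differed by less. With any 1 pool left out, the log2 fold change of *Dcn* lay between -1.38 and -0.81.

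*Bgn* (ENSMUSG00000031375.17; chrX:73483602-73495933, + strand) went the other way. It measured 21.5 and 20.9 TPM in WT pools 4 and 6, and 51.5 and 48.5 TPM in *Shh-/-* pools 1 and 2. Here the pools of a genotype nearly coincided, and every *Shh-/-* value was well above every WT value. The group means were 49.99 ± 2.18 TPM and 21.2 ± 0.415 TPM (SD, n = 2 pools each). The log2 fold change was 1.20 (SE 0.11, 95% interval 0.90 to 1.49) and the adjusted p was 0.0422 (limma, Benjamini-Hochberg over the 16972 genes whose TPM averaged at least 1). The call depends on having all 4 pools. Without any 1 of them the log2 fold change stayed between 1.15 and 1.24 and the adjusted p lay between 0.106 and 0.156. It was also lost without the TPM filter (adjusted p = 0.146) and without limma's mean-variance trend (adjusted p = 0.0535).

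Of the 8 members, 4 (*Dcn*, *Bgn*, *Lum* and *Fmod*) reached a mean of 1 TPM and were tested, and 1 passed. Over all tested genes 0.725% passed, 0.56% as higher and 0.165% as lower in *Shh-/-*. An unadjusted p under 0.05 was reached by 3 of the 4, against 24.8% of all tested genes. Both *Shh-/-* pools lay above both WT pools for 2 of the 4, against 38% of tested genes, and below them for the other 2, against 22.7%. The median log2 fold change of the 4 members was -0.34 and that of all tested genes was 0.08, with 9895 genes higher and 7077 lower in *Shh-/-*. In bulk tissue, fewer cells that express a gene and less of its RNA per cell cannot be told apart. *Dcn* and *Bgn* are among the genes the study listed from these same libraries, so their values here are not independent evidence. The study set its list at an adjusted p under 0.05 and names *Dcn* as downregulated. Here *Dcn* had the same direction but an adjusted p of 0.116 (limma). In all, 123 of 16972 tested genes passed here, far fewer than the study's list holds, so the difference is not particular to *Dcn*. The reason for this difference was not tested.

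**Figure D1:**
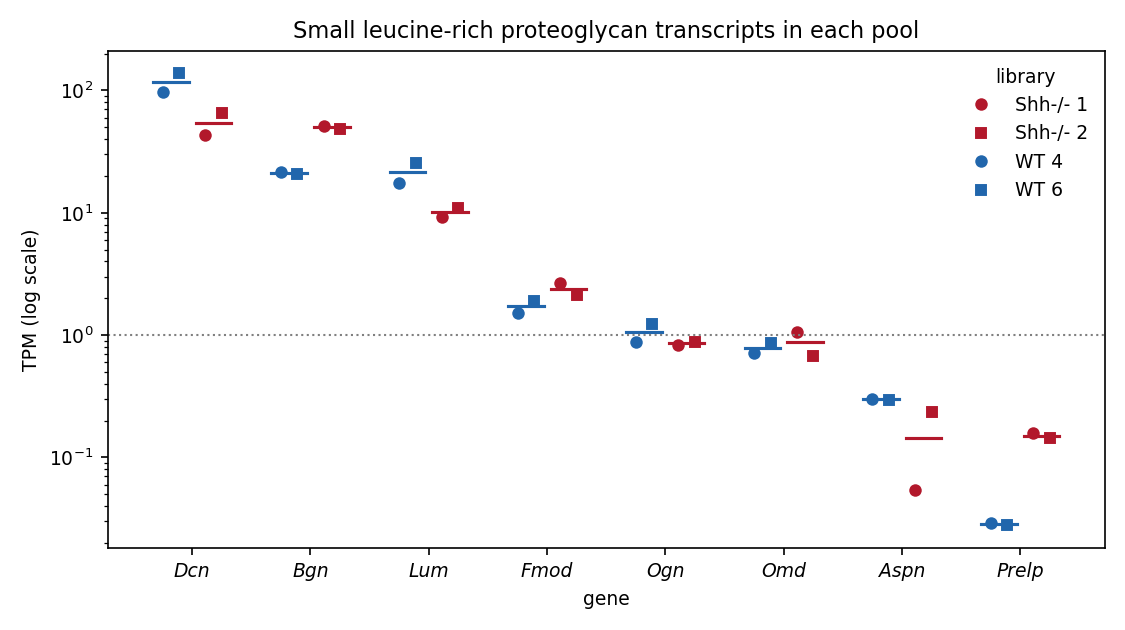
TPM (log axis) of the 8 SLRP genes in each pool, WT in blue and *Shh-/-* in red; circles and squares are the pools and horizontal bars the group means. *Bgn* is higher in both *Shh-/-* pools, *Dcn* and *Lum* are lower in both, and 4 genes lie near or under the dotted line at 1 TPM, the mean needed for a test.

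*Aspn* encodes asporin, a class I core protein of cartilage and periodontal ligament that carries an aspartate stretch in place of a sulfated chain. It was barely detected, at 0.301 and 0.295 TPM in WT pools 4 and 6 and 0.0538 and 0.236 TPM in *Shh-/-* pools 1 and 2. Coverage multiplied by transcript length gives about 13.3 and 13.6 reads in WT and 1.1 and 11.4 reads in *Shh-/-*. Both *Shh-/-* values were under both WT values, and the lowest came from the library with the fewest aligned reads. With no filter on TPM its adjusted p was 0.471 (limma).

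Since *Dcn* and *Bgn* bind many of the same partners, the balance between them was compared within each library, where scaling cancels out. The ratio was chosen with earlier values of both genes known. It joins a gene that rose to one with lower values, so it describes their difference and does not test it anew. *Dcn* stood at 4.48 and 6.59 times the level of *Bgn* in WT pools 4 and 6. In *Shh-/-* the ratio was 0.846 in pool 1 and 1.35 in pool 2. Both mutant ratios were far under both WT ratios, and in pool 1 *Bgn* was the more abundant transcript. The mean log2 ratio was 0.10 ± 0.48 in *Shh-/-* and 2.44 ± 0.39 in WT (SD, n = 2 pools each), a difference of -2.34, or 5.08-fold. An exact two-sided permutation test gave p = 0.333, the smallest that 2 pools against 2 allow, so it adds nothing beyond the separation of the pools. Leaving out a pool moved the difference between -2.68 and -2.01.

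**Figure D2:**
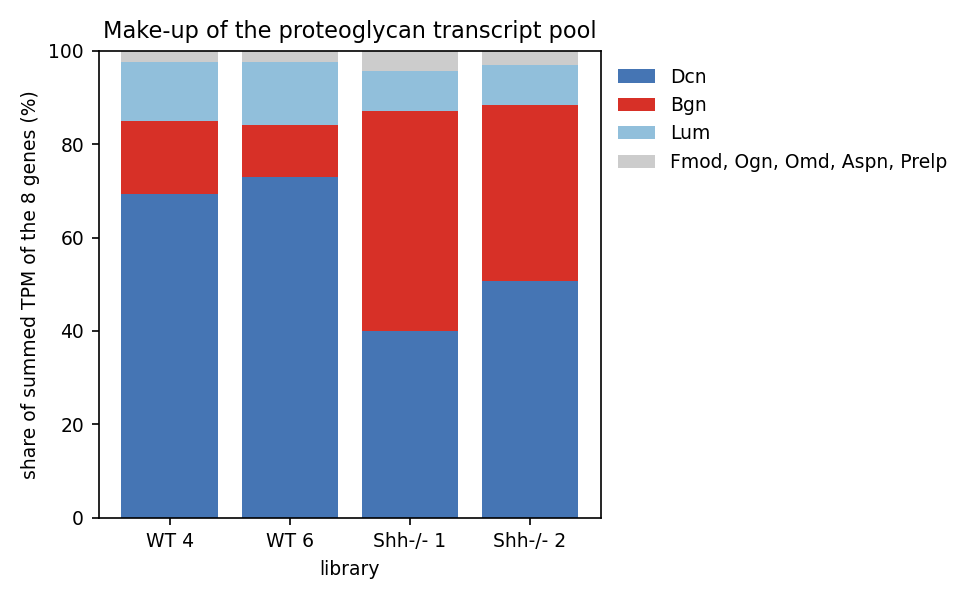
Share of the summed TPM of the 8 SLRP genes taken by *Dcn*, *Bgn*, *Lum* and the other 5 genes in each pool, as stacked bars that add to 100%. *Dcn* takes 69.4 and 73.0% in WT and 40.0 and 50.8% in *Shh-/-*, where *Bgn* takes 47.2 and 37.5%.

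The summed level of all 8 members was 139 and 189 TPM in WT and 109.1 and 129 TPM in *Shh-/-*. *Bgn* took 15.5 and 11.1% of it in WT and 47.2 and 37.5% in *Shh-/-* (pools 1 and 2). *Lum* took 12.6 and 13.6% in WT and 8.43 and 8.51% in *Shh-/-*. The 5 remaining genes never exceeded 4.38%. *Dcn* and *Bgn* were also set against *Col1a1*, which encodes the main chain of type I collagen, the fibril that decorin and biglycan coat. *Dcn* stood at 125 and 206% of *Col1a1* in WT and at 52.5 and 68.9% in *Shh-/-*. The corresponding values for *Bgn* were 27.9 and 31.2% in WT and 62.0 and 50.9% in *Shh-/-*. *Col1a1* itself had a log2 fold change of 0.30 (adjusted p = 0.228), so these percentages largely restate the levels of *Dcn* and *Bgn*. The other chain gene of type I collagen, *Col1a2*, had a log2 fold change of 0.97, nearer to that of *Bgn* (1.20). A contrast of *Bgn* against *Col1a2* would therefore be smaller.

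*Lum* (ENSMUSG00000036446.4; chr10:97565501-97572703, + strand) encodes lumican, a class II core protein needed for the even spacing of corneal collagen. It was the only class II member above 3 TPM, at 17.5 and 25.7 TPM in WT pools 4 and 6 and 9.20 and 11.0 TPM in *Shh-/-* pools 1 and 2. The groups did not overlap, and the WT pools were the more spread. The means were 10.1 ± 1.27 TPM and 21.6 ± 5.77 TPM (SD, n = 2 pools each). The log2 fold change was -1.01 (SE 0.22, 95% interval -1.59 to -0.43) with an adjusted p of 0.106. *Lum* thus resembled *Dcn* in size of difference and in falling short of the threshold. The *Dcn* to *Lum* ratio was 5.50 and 5.36 in WT and 4.74 and 5.97 in *Shh-/-*, so that the WT ratios lay between the *Shh-/-* ratios. Leaving out 1 pool moved the log2 fold change of *Lum* between -1.27 and -0.75.

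*Fmod* (ENSMUSG00000041559.7; chr1:134037254-134048277, + strand) encodes fibromodulin, which binds type I collagen beside lumican and is abundant in tendon. It measured 1.51 and 1.92 TPM in WT pools 4 and 6, and 2.66 and 2.13 TPM in *Shh-/-* pools 1 and 2. The groups did not overlap, though the nearest values differed by less than the pools of either genotype. The log2 fold change was 0.32 (SE 0.22, 95% interval -0.24 to 0.89) with an adjusted p of 0.394. Once the GC content and transcript length of the genes had been fitted out of each library, it was 0.040.

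*Prelp*, a class II gene whose protein binds heparan sulfate through a basic N-terminus, was at the detection limit. It was listed at 0.0291 and 0.0279 TPM in WT pools 4 and 6, from about 2 reads each, and at 0.157 and 0.145 TPM in *Shh-/-*, from about 5 and 10.9 reads. Both *Shh-/-* values were higher, and with no TPM filter the adjusted p was 0.303. *Omd* encodes osteomodulin, the class II protein of mineralizing bone. Its levels were 0.710 and 0.867 TPM in WT pools and 1.07 and 0.678 TPM in *Shh-/-* pools, which overlapped. The class III gene *Ogn* had 0.877 and 1.24 TPM in WT and 0.833 and 0.879 TPM in *Shh-/-*, which overlapped as well. About 18.8 to 63.2 reads stood behind each *Ogn* value and 21.1 to 38.6 behind each *Omd* value. At this depth no difference was detectable for *Omd* or *Ogn*, with adjusted p of 0.876 and 0.683 when no filter was applied.

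**Figure D3:**
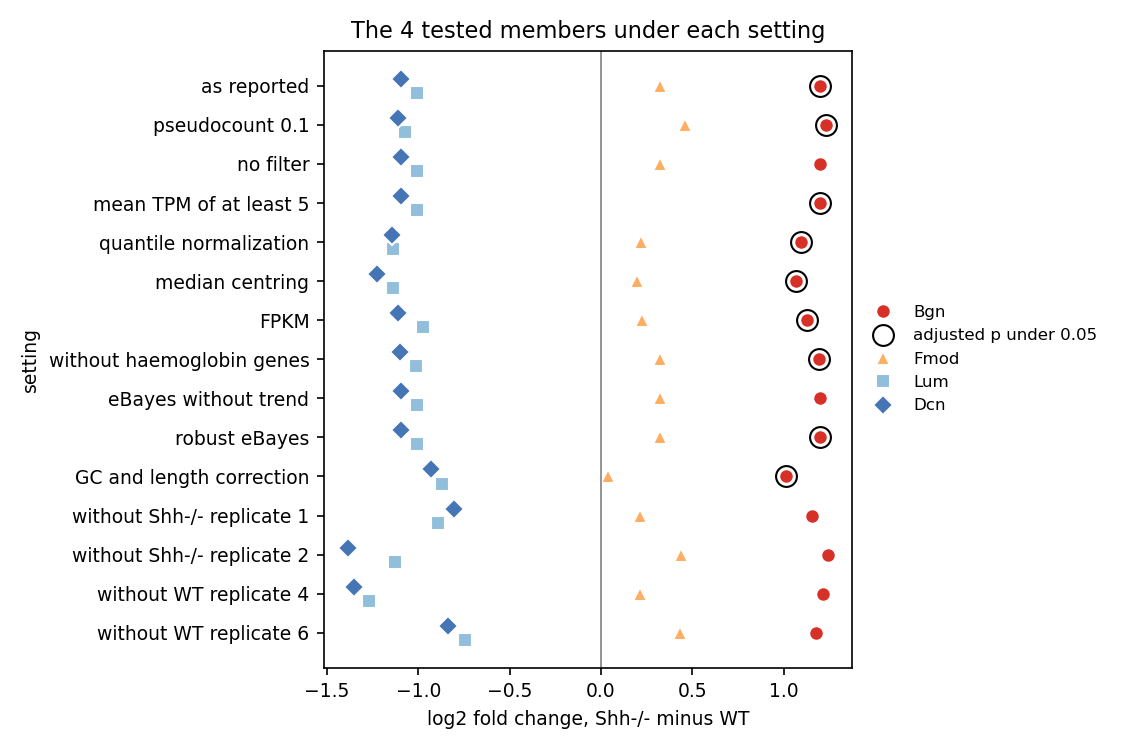
Log2 fold change (*Shh-/-* minus WT) of the 4 tested members under the reported analysis and each alternative; circled points have an adjusted p under 0.05. No member crosses 0, *Bgn* lies between 1.01 and 1.24, and its call is lost in 6 of the 14 alternatives.

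Most SLRP genes lie in short runs that arose from ancient duplications, and the members were set beside their neighbours on the mm10 assembly. *Dcn*, *Lum*, *Kera* and *Epyc* share the + strand of a 203.0 kb stretch of chromosome 10, with the start of *Lum* 86.0 kb from that of *Dcn*. Of the 3 members with lower values in both *Shh-/-* pools, *Dcn* and *Lum* are the 2 that were tested, and *Aspn* lies on chromosome 13. *Epyc*, the class III gene at the far end, had 0.311 and 0.793 TPM in WT pools 4 and 6 and was listed at 0 in both *Shh-/-* pools. About 14.9 and 39.5 reads stood behind its WT values. With no TPM filter its log2 fold change was -0.62 (adjusted p = 0.229, limma). *Kera*, between *Lum* and *Epyc*, was listed at 0.117 TPM in *Shh-/-* pool 1, at 0.155 TPM in WT pool 6 and at 0 in the other two pools. The nearest tested genes outside the run were *Btg1*, at 856.7 kb (log2 fold change 0.11, adjusted p = 0.636), and *Atp2b1*, at 1232.7 kb (-0.32, adjusted p = 0.24). The direction of *Btg1* turned under median centring.

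The run on chromosome 1 holds *Optc*, *Prelp* and *Fmod* within 151.1 kb. *Prelp* and *Fmod* both had higher values in both *Shh-/-* pools, as did 38% of all tested genes. *Prelp* was too low to be tested, and *Fmod* had a log2 fold change of 0.040 after the GC and length correction. The flanking genes *Atp2b4* and *Btg2* had log2 fold changes of 0.42 (adjusted p = 0.223) and 0.38 (adjusted p = 0.189). That of *Btg2* was 0.23 after the GC and length correction. On chromosome 13, *Ecm2*, *Aspn*, *Omd* and *Ogn* lie on the + strand of a 119.7 kb stretch, all 4 inside the span of *Cenpp*, a centromere protein gene on the - strand. *Cenpp* was read at 37.0 and 42.7 TPM in WT pools 4 and 6 and at 29.3 and 29.0 TPM in *Shh-/-* pools (log2 fold change -0.43, SE 0.13, adjusted p = 0.144, and -0.24 after the same correction). In every pool its level was far above that of each SLRP gene inside it. The libraries mark strand, but the strand setting of the assembly is not given in the sources used here, and the part of *Cenpp* reads in the low values of these genes was not tested. The flanking genes *Nol8* and *Tes3-ps* had log2 fold changes of -0.65 (adjusted p = 0.19) and -0.37 (adjusted p = 0.307). *Bgn* stands apart from other SLRP genes on the X chromosome, between *Haus7* (0.14, adjusted p = 0.447) and *Dusp9* (0.30, adjusted p = 0.374), which were 0.049 and -0.095 after the correction. Neither flanking gene passed the test.

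**Figure D4:**
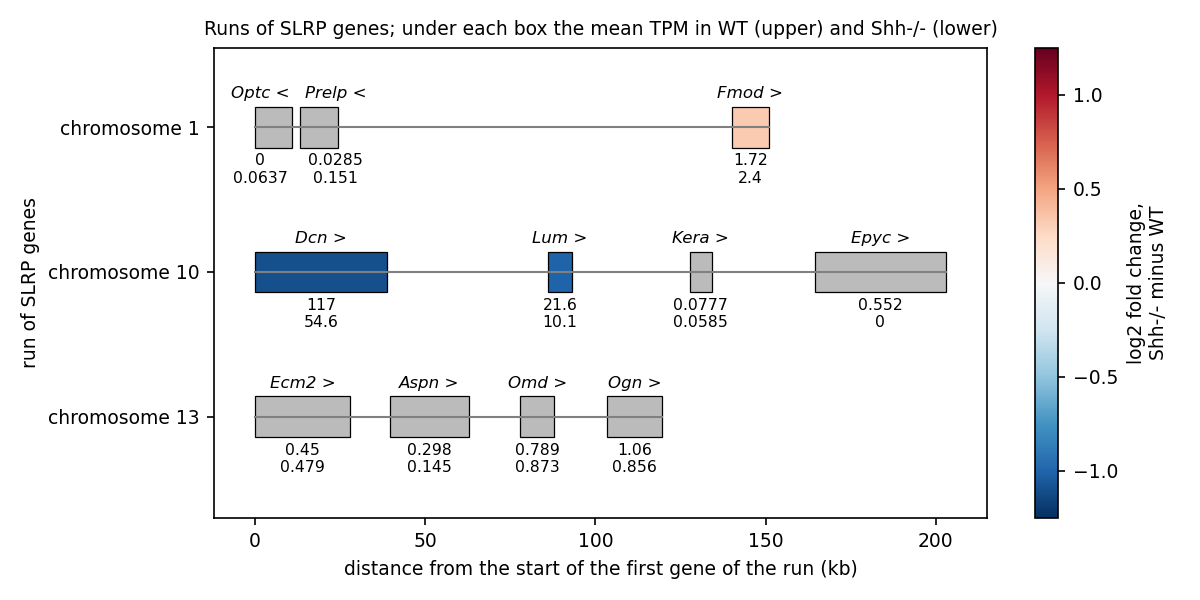
The 3 runs of SLRP genes drawn to scale by distance from the start of the first gene (kb), with arrowheads for strand and the mean TPM in WT (upper) and *Shh-/-* (lower) under each gene. Colour gives the log2 fold change of tested genes and grey marks genes with a mean TPM under 1; *Dcn* and *Lum*, at -1.09 and -1.01, lie side by side on chromosome 10.

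The rest of the family, 10 genes in all, was mostly at low levels at this stage, and 2 genes reached a mean of 1 TPM. *Tsku* encodes tsukushi, a class IV protein that binds BMP ligands. It had 11.8 and 17.8 TPM in WT pools 4 and 6 and 14.8 and 8.02 TPM in *Shh-/-* pools (log2 fold change -0.38, SE 0.34, adjusted p = 0.509, and -0.70 after the GC and length correction), and the groups overlapped. *Chad* encodes chondroadherin, a cartilage protein that binds integrins, and lay between 0.924 and 1.12 TPM in all pools (0.034, SE 0.22, adjusted p = 0.937). *Podn*, a class V gene named after its values were seen, had 2.53 and 0.782 TPM in *Shh-/-* pools 1 and 2, and WT pools 4 and 6 had 0.317 and 0.125 TPM. Its mean was under 1 TPM, and with no TPM filter its log2 fold change was 1.04 (adjusted p = 0.28).

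The sulfated chains of class I proteins are built by a linker pathway shared with other proteoglycans and are then extended, sulfated and epimerized. Of 22 such genes 20 were tested, and 0 passed in either direction, against 0.725% of all tested genes. An unadjusted p under 0.05 was reached by 6, all higher in *Shh-/-*, against 24.8% of all tested genes. The median log2 fold change of all tested genes was 0.08, with 9895 higher and 7077 lower. For the list the median was 0.28, with 18 genes higher and 2 lower. That split was 15 and 5 under median centring and 13 and 7, with a median of 0.039 and 1 gene at an unadjusted p under 0.05, after the GC and length correction. The lowest adjusted p belonged to *Chst15*, the sulfotransferase that adds a further sulfate to 4-sulfated chondroitin. It had 4.99 and 3.84 TPM in WT pools 4 and 6 and 8.96 and 8.64 TPM in *Shh-/-* pools (log2 fold change 0.86, SE 0.19, adjusted p = 0.104). *Chst7*, a chondroitin 6-sulfotransferase, and *B3gat3*, which adds the last sugar of the linker, had log2 fold changes of 0.73 (adjusted p = 0.136) and 0.41 (adjusted p = 0.138), which were 0.34 and 0.042 after that correction. *Dse*, the epimerase that turns chondroitin into dermatan sulfate, was abundant, at 30.4 to 39.3 TPM. Its log2 fold change was 0.28 (adjusted p = 0.213), and it was named after its values were seen.

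Keratan sulfate, the chain of lumican and fibromodulin, had 11 of its 12 enzyme genes tested (*Chst4* was listed at 0 throughout). Again 0 passed. An unadjusted p under 0.05 was reached by 5 of the 11, all higher, against 24.8% of all tested genes. The median was 0.63, with 10 genes higher and 1 lower. After the GC and length correction the median was 0.28, with 9 higher, 2 lower and 2 at an unadjusted p under 0.05. *Chst1*, the keratan sulfate galactose 6-sulfotransferase, had 1.70 and 1.55 TPM in WT pools 4 and 6 and 6.82 and 5.11 TPM in *Shh-/-* pools (log2 fold change 1.40, SE 0.22, adjusted p = 0.0709). *B4galt4*, which adds the galactose of the repeat, and the sialyltransferase *St3gal2* had log2 fold changes of 0.63 (adjusted p = 0.0955) and 0.65 (adjusted p = 0.13). That of *St3gal2* was 0.29 after the correction.

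Among the collagens that SLRPs bind or accompany in fibrils, 13 of 14 were tested and 0 passed. An unadjusted p under 0.05 was reached by 6 of the 13, against 24.8% of all tested genes. All 13 had positive log2 fold changes, with a median of 0.37, but 10 and 3 were higher and lower under median centring, 11 and 2 under quantile normalization, and 8 and 5, with a median of 0.085 and 4 at an unadjusted p under 0.05, after the GC and length correction. Type VI collagen, a beaded-filament collagen that binds decorin and biglycan, held the lowest adjusted p. *Col6a2* had 6.35 and 5.80 TPM in WT pools 4 and 6 and 15.7 and 14.3 TPM in *Shh-/-* pools (log2 fold change 1.18, SE 0.15, adjusted p = 0.0595). *Col6a3* had 0.724 and 1.40 TPM in WT and 8.85 and 6.38 TPM in *Shh-/-* (2.07, SE 0.27, adjusted p = 0.0595). *Col1a2*, the second chain of type I collagen, had 124 and 103.5 TPM in WT and 237 and 210.4 TPM in *Shh-/-* (0.97, SE 0.13, adjusted p = 0.0602). These 3 genes were chosen as those with the lowest adjusted p of the list. Their adjusted p was 0.153 without the TPM filter and lay between 0.115 and 0.24 with a pool left out, and the log2 fold change of *Col1a2* was 0.60 after the GC and length correction.

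Of 17 enzymes that hydroxylate, cleave or cross-link collagen, 14 were tested and 0 passed. An unadjusted p under 0.05 was reached by 9 of them, 7 higher and 2 lower, against 24.8% of all tested genes. The median was 0.47. After the GC and length correction 6 reached it, 4 higher and 2 lower, with a median of 0.33. *Loxl2*, a lysyl oxidase that cross-links collagen, had 42.9 and 30.7 TPM in WT pools 4 and 6 and 101 and 87.9 TPM in *Shh-/-* pools (log2 fold change 1.35, SE 0.19, adjusted p = 0.0633). *Loxl1*, of the same family, and the lysyl hydroxylase *Plod1* had log2 fold changes of 0.82 (adjusted p = 0.0883) and 0.79 (adjusted p = 0.0818), which were 0.34 and 0.51 after the correction. The 2 lower genes, named after their values were seen, were *Lox*, at 6.85 and 5.40 TPM in WT and 1.73 and 4.17 TPM in *Shh-/-* (-0.92, adjusted p = 0.2), and *Plod2* (-0.58, adjusted p = 0.125).

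**Figure D5:**
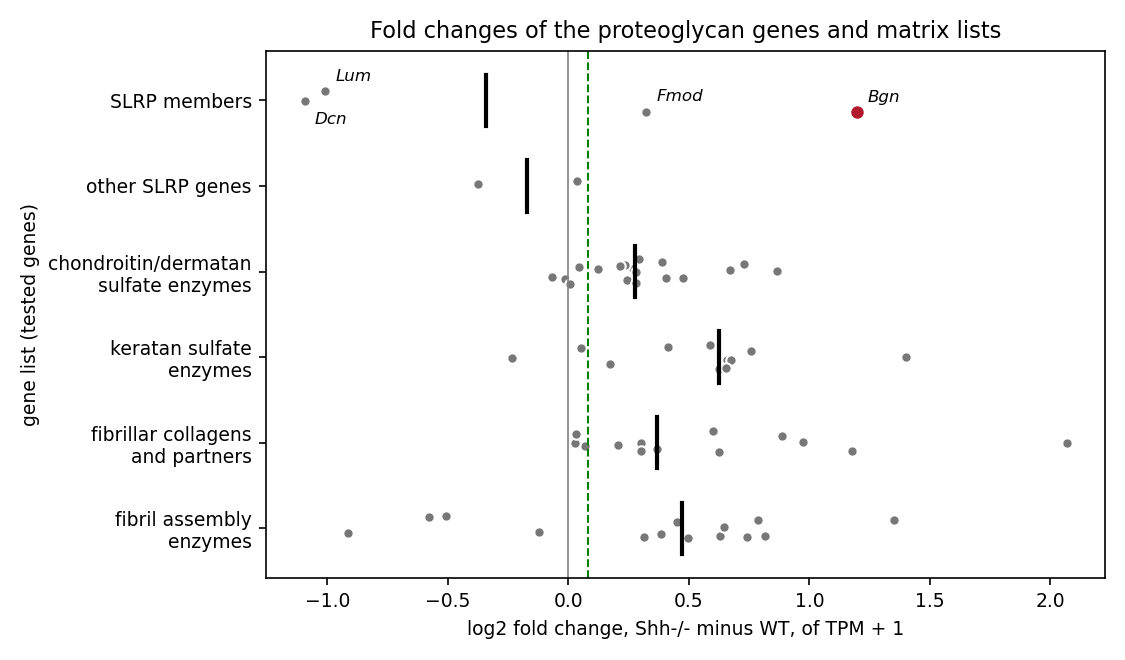
Log2 fold change (*Shh-/-* minus WT) of every tested gene of the SLRP members, the other SLRP genes and 4 lists of matrix genes; black bars are medians and the dashed line is the median of all tested genes (0.08). *Bgn*, in red, is the only gene shown with an adjusted p under 0.05.

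SLRPs are mainly made by mesenchymal cells, and the marker genes of several cell types differed between the same pools. Summed markers of general mesenchyme reached 944 and 953 TPM in WT pools 4 and 6 and 1373 and 1227 TPM in *Shh-/-* pools. Of 11 tested, 8 were higher, and *Twist1* passed the test. That split was 7 and 4 under median centring. The GC and length correction left 6 higher and 5 lower, and 2 of the higher genes passed. It took the median of the 11 from 0.30 to 0.038 on the log2 scale. Summed markers of foregut mesenchyme were lower in *Shh-/-*, at 211 and 176 TPM in WT and 50.5 and 87.8 TPM in *Shh-/-*. Of these 8 genes 7 were lower, *Foxf2* passed the threshold and none was at 0. Neuronal markers summed to 265 to 311 TPM in WT and 890 to 975 TPM in *Shh-/-*, with 7 of 12 genes past the threshold, all higher. Muscle markers (51.8 to 61.2 against 146 to 201 TPM, *Nppa* at 0) and endothelial markers (299 to 322 against 464 to 551 TPM) were also higher in *Shh-/-*, each with 1 gene past the threshold. Over all tested genes 0.725% passed. The muscle call was kept and the endothelial call lost under median centring, quantile normalization and the GC and length correction. Without the variance trend 2 neuronal markers passed, and with no TPM filter 0 genes of any kind passed. Cartilage markers summed to 259 to 265 TPM in WT and 311 to 411 TPM in *Shh-/-*, while *Matn1* was at 0 and *Acan* under 1 TPM in every pool. Of 10 tested cartilage markers 8 were higher and 0 passed, and after the GC and length correction 5 were higher and 5 lower. Neural crest markers ran from 151 to 186 TPM in WT and from 226 to 260.2 TPM in *Shh-/-*, with 1 gene past the threshold. Macrophage markers were low, at 16.9 to 21.0 TPM in WT and 22.2 to 26.2 TPM in *Shh-/-*, with 0 past the threshold. The sums of epithelial (635 to 726 TPM) and mesothelial markers (65.5 to 154 TPM) overlapped between the genotypes, but they hide opposed members. Of 10 epithelial markers 5 were higher and 5 lower, with log2 fold changes from -2.13 to 0.44. Of 7 tested mesothelial markers 5 were higher and 2 lower, from -2.00 to 0.70. In both groups 0 passed the threshold. The part of any of these cell types in the values of *Dcn*, *Bgn* and *Lum* was not tested.

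As a check of the labels, *Shh* was at 23.7 and 42.1 TPM in WT pools 4 and 6 and at 10.4 and 10.8 TPM in *Shh-/-* pools (log2 fold change -1.49, SE 0.28, adjusted p = 0.0895). The value covers the whole gene, so transcripts of an allele that lacks part of it and of an intact allele would be counted alike. The source of the *Shh* reads in the *Shh-/-* pools was not tested. *Ptch1*, the HH receptor gene that HH signaling induces, fell from 57.8 and 55.1 TPM to 12.9 and 13.8 TPM (-2.00, SE 0.12, adjusted p = 0.0319). The 4 libraries held 18300000 to 41700000 aligned reads, the fewest in *Shh-/-* pool 1, and 16432 to 17117 genes with at least 1 TPM. RNA integrity numbers ran from 7.7 to 9 and haemoglobin transcripts from 1.18 to 1.85% of TPM.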

How the data were processed

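Stranded, poly(A)-selected libraries were made from 4 pools of 3 larynxes each, 2 *Shh-/-* and 2 WT. Per the labels, the authors used HISAT2 2.1.0 for alignment to mm10 and StringTie 1.3.6 for gene quantification; the annotation release and strand setting are not given in the sources used here. The deposited tables hold, per gene, StringTie's mean read coverage (not normalized), FPKM (coverage scaled by the authors to the library's aligned bases) and TPM (FPKM scaled by the authors to a fixed sum per library). They were used without read counts. The aligned bases of a library follow from coverage divided by FPKM. A read length of 75 nt, was inferred because 23.8 to 28.8% of single-transcript genes at low coverage then had whole reads, and no more than 14.8% at the next best length. This gave 18300000, 41700000, 37900000 and 39600000 reads for *Shh-/-* pools 1 and 2 and WT pools 4 and 6. Reads per gene were taken as coverage times the GENCODE M21 transcript length divided by read length, and are approximate.

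TPM was summed per gene ID. All 16972 genes with a mean of at least 1 TPM were fitted on log2(TPM + 1) by lmFit and trended eBayes (limma 3.58.1, R 4.3.3), *Shh-/-* minus WT, with Benjamini-Hochberg adjustment and a threshold of 0.05. A fold change on this scale understates the change of low genes. The scripts were tested on simulated data. Nothing states whether the pools of a genotype came from separate litters, so p-values measure only the spread between these pools. No counting interval is given, since TPM keeps no counts.

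Named genes were the 8 members, other SLRP genes with a mean of at least 1 TPM, *Shh* and *Ptch1*, the 3 genes with the lowest adjusted p in each matrix list where none passed the threshold, the nearest tested gene on each side of each run and any gene containing a member. The members, the lists and the *Dcn* to *Bgn* ratio were chosen with earlier results of these data known. Alternatives were a pseudocount of 0.1, no filter or a minimum of 5 TPM, quantile normalization, median centring, FPKM, TPM without haemoglobin genes, eBayes without trend or with robust variance, an adjusted p of 0.10, a correction of 16887 genes for transcript length and GC content by natural splines with 5 degrees of freedom each and each pool left out. Promoters came from RefSeq.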

Additional observations from a re-analysis of the deposited data

How the results depend on the processing

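Across 29 named genes and their alternatives, 400 log2 fold changes were recomputed. Of these, 380 kept their direction and their side of the threshold, 11 kept their direction and lost the call (*Bgn* and *Ptch1*), and 9 changed sign, all of them in genes with small differences. The log2 fold change of *Chad* was -0.048 with quantile normalization, -0.095 with median centring and -0.23 after the GC and length correction, and lay between -0.020 and 0.088 with a pool left out. That of *Tsku* lay between -0.78 and 0.028 with a pool left out. That of *Btg1* was -0.022 with median centring and lay between -0.024 and 0.24 with a pool left out, and that of *Dusp9* was -0.095 after the GC and length correction. *Dcn*, *Lum*, *Fmod* and *Bgn* kept their sign throughout. Median centring moved the median of all tested genes by 0.13, from 0.083 to -0.046.

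The number of genes past the threshold, 123, was 69 with a pseudocount of 0.1 and 858 at an adjusted p of 0.10, and lay between 0 and 16 with a pool left out. With no TPM filter it was 0 of 28524 genes by limma, of which 5011 had an unadjusted p under 0.05. The number of SLRP members past it, 1, was 0 without the filter, 0 without the variance trend and 0 to 0 with a pool left out. At an adjusted p of 0.10, 2 keratan sulfate enzymes, 4 collagens and 3 fibril assembly enzymes passed. The cause of these shifts was not tested. No paired analysis was made, because nothing states that any *Shh-/-* pool is matched to a WT pool. With 2 pools per genotype, and with at most 63.2 reads behind each value of *Ogn*, *Omd*, *Aspn* and *Prelp*, differences in these 4 genes were not detectable.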
